A study of Mus musculus with 4 samples.

Results

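Wnt ligands, their receptors and a small set of Wnt mediators and target genes were examined in ATDC5 cells, a mouse chondroprogenitor line, before and after chondrogenic culture. Members were the probe sets with exactly 1 annotated gene symbol that named a Wnt ligand, a Frizzled receptor, or one of Lrp5, Lrp6, Ror1, Ror2, Ryk, Axin2, Lef1, Tcf7, Nkd1, Nkd2 and Ctnnb1, with the brightest probe set kept for each gene. This gave 39 genes out of 19938 measured, namely 19 ligands, 10 Frizzled receptors, 5 co-receptors or other receptors, and 5 mediators or targets; Tcf7 was not analysed here. No filter on low values was applied, so all 39 entered the test.

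The study compared 2 samples of ATDC5 cells at day 0 with 2 samples at day 15. Day 0 cells were held undifferentiated in basal DMEM/F12 medium with serum and ascorbic acid, and day 15 cells had received insulin, transferrin and selenite in that medium for 15 days. Each sample's total RNA was measured on 1 whole-transcript array, and no label states that these were independent cultures. Whether the sample-to-sample spread behind the p-values is that of independent cultures is therefore not known. No sample was cultured for 15 days without the supplement, so time in culture and the supplement cannot be told apart. All values below are log2 intensities after quantile normalization unless a fold is named. The arrays measured whole cultures, in which fewer cells of a type and less RNA per cell cannot be told apart.

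Wnt proteins are secreted, lipid-modified ligands that bind Frizzled receptors together with the co-receptors Lrp5 and Lrp6, or receptor tyrosine kinase family members such as Ror1, Ror2 and Ryk. In the canonical branch, receptor engagement stabilizes beta-catenin, which joins TCF/LEF factors in the nucleus and switches on genes that include the feedback inhibitors Axin2 and Nkd1. Other branches act through planar cell polarity and calcium. In cartilage, canonical signaling is known to restrain early chondrocyte commitment and to promote hypertrophy later, and Wnt5a is known to influence the pace of growth plate differentiation.

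The labelled cell type was checked first. Of 12 chondrocyte markers 6 rose and none fell, and their summed linear intensity was 9431 and 7575 at day 0 and 22850 and 31480 at day 15. None of 10 macrophage markers passed limma's test between the days (1, Lyz2, was higher at an unadjusted p below 0.05), while 8 of 10 were higher in replicate 1 than in replicate 2 on both days, and their summed intensity was 10280 and 2302 at day 0 and 11060 and 3898 at day 15. The exceptions were Ptprc and Adgre1, and no marker was listed at 0. The complement gene C1qb was at 11.36 in replicate 1 and 6.09 in replicate 2 at day 0, and at 11.11 and 5.80 at day 15. Of 5 osteoblast markers 1 rose, Ibsp, by 5.36 log2. The other 4 were not called, with differences of 0.14 (Dmp1), 0.28 (Dlx5), 0.81 (Sp7) and 2.55 log2 (Phex). The summed intensity of these markers, Ibsp included, was 5351 and 7568 at day 0 and 21600 and 24690 at day 15. The part of osteoblasts in the differences between days was not tested. Summed markers of adipocytes, endothelium and muscle differed little between arrays (1120 to 1222, 788.1 to 874.2 and 1101 to 1210). As a stand-in for background, which the table does not give, the 95th percentile of 1015 olfactory receptor genes was taken on each array, and it lay between 7.67 and 7.95.

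Wnt5a and Fzd9 rose, and none of the 39 members fell. A gene was called when its limma p, adjusted over all genes by Benjamini-Hochberg, was below 0.05. The 2 called members are 5.13% of the 39, against 1.72% of all genes (1.3% higher and 0.411% lower). At an unadjusted limma p below 0.05, 8 members were higher and 1 was lower, or 23.1% against 12.2% of all genes. The median difference of the members was 0.07 log2, beside 0.02 for all genes, and 26 of 39 differences were positive, 66.7% against 53.2%. That number ran from 22 to 28 of 39 over the scalings between arrays. The 1015 olfactory receptor genes, the stand-in for background, had a median of 0.06 log2 and 61.3% positive differences. The day 15 arrays both lay above both day 0 arrays for 10 members (25.6%, against 22.3% of all genes) and below them for 4 (10.3%, against 17.8%), together 14 of 39 beside 40.1% of all genes. For 28 of the 39 the 95% interval of the difference lay within 1 log2 of 0, beside 16172 of all 19938 genes. A difference of 1 log2 is a 2-fold change in either direction. The 28 include all 9 members at or under the 95th percentile of olfactory receptor genes on all 4 arrays. A narrow interval there does not show that a gene was unchanged.

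**Figure D1:**
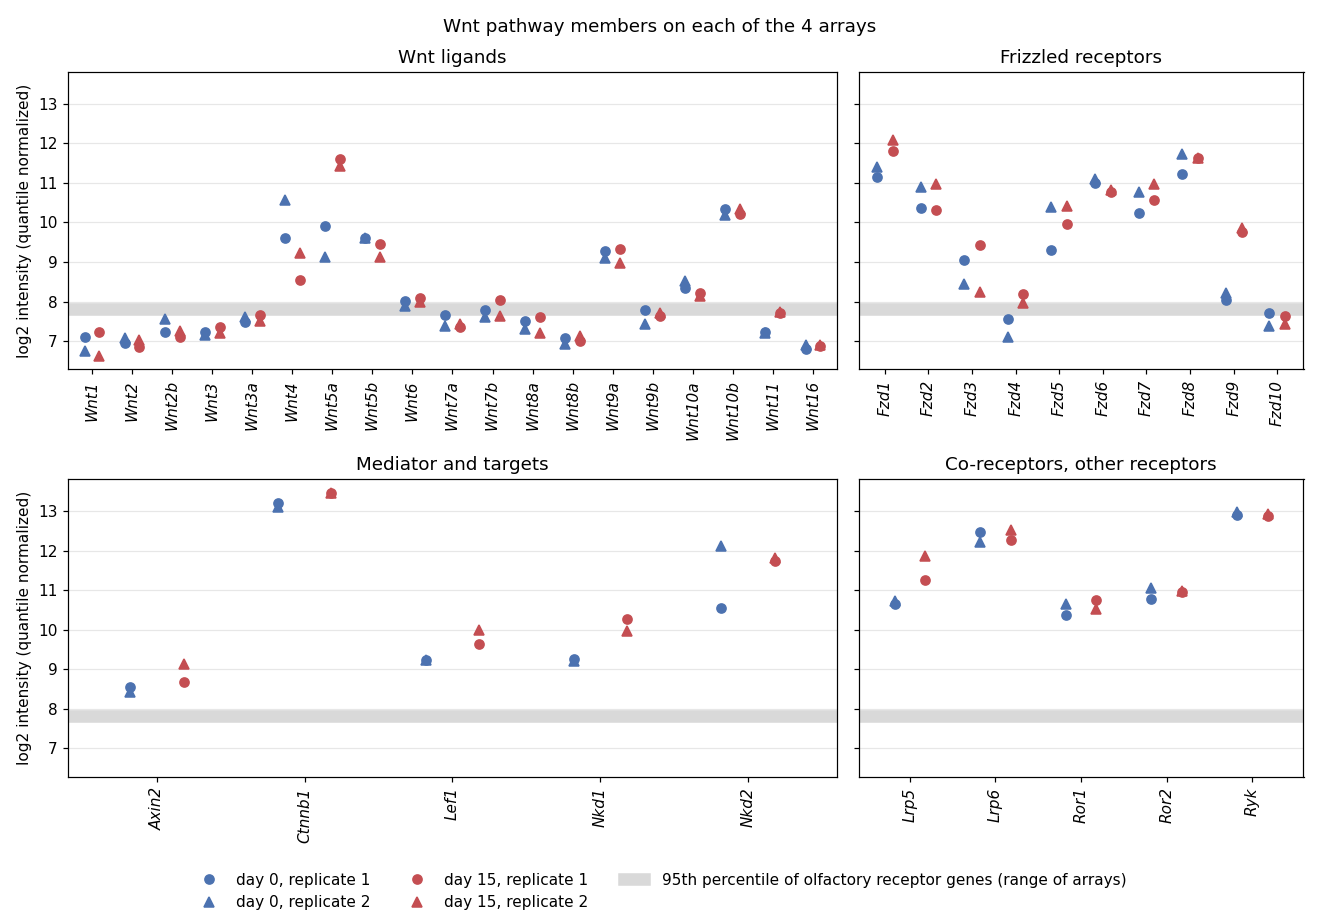
Log2 intensity of each of the 39 members on each of the 4 arrays, in panels by role, with day 0 in blue, day 15 in red, circles for replicate 1 and triangles for replicate 2. The grey band spans the 95th percentile of olfactory receptor genes over the arrays (7.67 to 7.95). Day 15 points lie above the day 0 points for 10 members (25.6%, against 22.3% of all genes), Wnt5a and Fzd9 among them. They lie below for 4 (10.3%, against 17.8%).

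Among the ligands, Wnt5a, a ligand best known for signaling outside the beta-catenin branch, stood at 9.92 and 9.13 at day 0 and at 11.61 and 11.42 at day 15. Both day 15 arrays were above both day 0 arrays, and the day 0 pair was farther apart than the day 15 pair. Wnt5a rose by 1.99 ± 0.29 log2 (SE, n = 2 arrays per day; limma adjusted p = 0.0379), or 3.98-fold. Replicate 1, in which the macrophage markers were high, had the higher Wnt5a value on both days; the difference was 1.69 log2 between the replicate 1 arrays and 2.30 between the replicate 2 arrays. The Wnt5a call was lost without day 0 replicate 2 (limma adjusted p = 0.051), day 15 replicate 1 (0.145) or day 15 replicate 2 (0.102), with median centring (0.0505) and with all probe sets tested together (0.176).

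Wnt5b, the close relative of Wnt5a, did not share that difference. It was at 9.60 on both day 0 arrays and at 9.46 and 9.14 at day 15, slightly lower at day 15 without overlap. Its difference of −0.30 log2 had a 95% interval of −0.76 to 0.16, which lies wholly below the interval of Wnt5a, 1.28 to 2.70; the difference between the genes was not tested.

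Wnt4, a ligand expressed at forming joints and in maturing cartilage, had the largest negative difference of the members. It was at 9.60 and 10.57 at day 0 and at 8.55 and 9.22 at day 15, so that day 15 was lower without overlap while replicate 2 was the higher array on both days. The difference was −1.20 ± 0.38 log2 and did not pass (limma adjusted p = 0.276; 95% interval −2.14 to −0.26); it was −1.05 between the replicate 1 arrays and −1.35 between the replicate 2 arrays. Wnt4 was the only member with more than 1 probe set, and its dimmer one gave −0.55 log2, from 9.34 and 9.78 at day 0 to 8.79 and 9.22 at day 15. The Wnt4 difference ranged from −1.66 log2 without day 0 replicate 1 to −0.72 without day 0 replicate 2.

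Wnt11, a ligand of convergent extension movements, was at 7.23 and 7.21 at day 0 and at 7.70 and 7.74 at day 15. Its difference of 0.50 ± 0.16 log2 did not pass (limma adjusted p = 0.274), and 3 of its 4 values were within the range of the olfactory receptor genes. Wnt10a, at 8.33 and 8.52 and then 8.21 and 8.13, differed by −0.26 log2 (limma adjusted p = 0.69). The ligand Wnt10b, known for favouring bone over fat formation, gave values between 10.20 and 10.35 on all arrays, a difference of 0.00 log2 with a 95% interval of −0.41 to 0.42. Wnt9a, a ligand of joint formation, gave values between 8.98 and 9.33 and a difference of −0.04 log2 (−0.53 to 0.45).

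The remaining ligands were dim. Wnt1, Wnt2, Wnt2b, Wnt3, Wnt7a, Wnt8a, Wnt8b and Wnt16 were at or under the 95th percentile of olfactory receptor genes on all 4 arrays, and Wnt3a, Wnt7b, Wnt9b and Wnt11 on some of them. Their expression was not detectable by this measure where values lay in that range, which does not show that it is absent. Wnt6 lay just above the range, at 7.90 to 8.10. The differences of these ligands other than Wnt11 ran from −0.21 log2 for Wnt2b to 0.13 for Wnt7b, and none was called.

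Among the Frizzled receptors, Fzd9 was at 8.04 and 8.21 at day 0 and at 9.75 and 9.87 at day 15. The arrays of each day lay close together and the days were well apart. Fzd9 rose by 1.68 ± 0.17 log2 (SE, n = 2 arrays per day; limma adjusted p = 0.0132), or 3.21-fold, with a difference of 1.71 log2 between the replicate 1 arrays and 1.66 between the replicate 2 arrays. Its day 0 values lay just above the olfactory receptor percentile of those arrays, 7.73 and 7.88. The call was lost when either day 15 array was left out (limma adjusted p = 0.0512 without replicate 1 and 0.0538 without replicate 2) and with all probe sets tested together (0.079).

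Fzd4, the receptor of the ligand norrin as well as of Wnts, was at 7.55 and 7.11 at day 0 and at 8.18 and 7.96 at day 15. Day 15 was higher without overlap, and the day 0 values lay in the olfactory receptor range. The difference of 0.74 ± 0.22 log2 did not pass (limma adjusted p = 0.232). Fzd1, a receptor of the canonical branch, was at 11.16 and 11.41 at day 0 and at 11.81 and 12.08 at day 15, higher without overlap. Its difference of 0.66 ± 0.19 log2 did not pass either (limma adjusted p = 0.233). Fzd6 was the only Frizzled receptor that was lower without overlap, from 10.99 and 11.11 to 10.77 and 10.83, a difference of −0.25 log2 (limma adjusted p = 0.698).

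Fzd2, Fzd3, Fzd5, Fzd7, Fzd8 and Fzd10 overlapped between the days, with differences from 0.00 for Fzd10 and Fzd2 to 0.35 log2 for Fzd5. Fzd10 was within the olfactory receptor range on all arrays. The receptors Fzd3 and Fzd5 spread more between replicates than between days. Fzd3 was at 9.05 and 8.45 at day 0 and at 9.44 and 8.25 at day 15, and Fzd5 at 9.29 and 10.39 and then 9.96 and 10.42. For Fzd3 a difference of 1.14 log2 lay inside the 95% interval (−0.94 to 1.14), so a 2-fold change could not have been told from the spread.

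Of the co-receptors, Lrp5 and Lrp6 gave different values. Lrp5, in which activating changes are known to raise bone mass, was at 10.64 and 10.73 at day 0 and at 11.27 and 11.86 at day 15, higher without overlap. Its difference of 0.88 ± 0.24 log2 did not pass (limma adjusted p = 0.204). Lrp6, at 12.47 and 12.23 at day 0 and 12.28 and 12.51 at day 15, overlapped and differed by 0.05 log2. The 95% intervals of the differences, 0.29 to 1.46 for Lrp5 and −0.41 to 0.51 for Lrp6, overlap, and the difference between them was not tested.

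The receptor tyrosine kinase Ror2, which binds Wnt5a, was at 10.77 and 11.05 at day 0 and at 10.96 and 10.99 at day 15. Ror1 was at 10.36 and 10.66 and then at 10.76 and 10.52, and the pseudokinase receptor Ryk stayed between 12.88 and 12.98 on all 4 arrays. The days overlapped for all these receptors. Their differences were 0.06 log2 for Ror2 (95% interval −0.38 to 0.51), 0.13 for Ror1 (−0.35 to 0.61) and −0.04 for Ryk (−0.44 to 0.36). A 2-fold change lay outside the interval of each, and the smaller changes inside it remained possible.

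**Figure D2:**
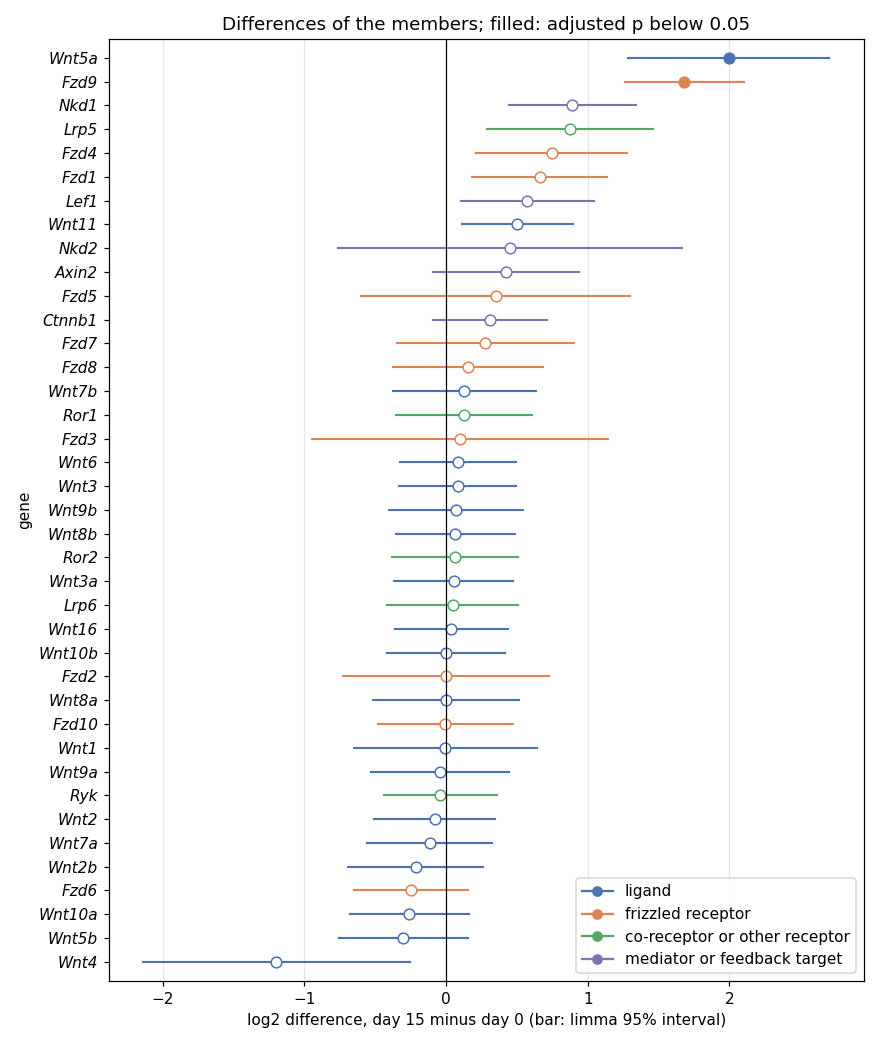
Difference between day 15 and day 0 in log2 intensity for each of the 39 members, sorted by size and coloured by role, with bars for limma's 95% interval. Filled points, Wnt5a at 1.99 and Fzd9 at 1.68, had an adjusted p below 0.05, and 28 intervals lie within 1 log2 of 0.

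The mediator and the target genes all had positive differences, and none was called. Ctnnb1, which encodes beta-catenin, was at 13.20 and 13.09 at day 0 and at 13.44 and 13.47 at day 15, a difference of 0.31 ± 0.16 log2 (limma adjusted p = 0.56). The days did not overlap, but the 95% interval was −0.09 to 0.71. Beta-catenin is controlled mainly by its breakdown, which RNA does not measure.

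Nkd1, a feedback inhibitor that binds Dishevelled, came closest to a call. It was at 9.25 and 9.22 at day 0 and at 10.27 and 9.98 at day 15, and the day 0 arrays were nearly equal. The difference was 0.89 ± 0.18 log2 (95% interval 0.44 to 1.34; limma adjusted p = 0.106), and over the alternatives it ran from 0.74 to 1.05 without a call.

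Lef1, a DNA-binding partner of beta-catenin, was at 9.23 on both day 0 arrays and at 9.63 and 9.99 at day 15. Its difference of 0.57 ± 0.19 log2 did not pass (limma adjusted p = 0.301), although day 15 was higher without overlap. Axin2, a scaffold of the complex that breaks down beta-catenin and a widely used readout of the canonical branch, was at 8.54 and 8.42 at day 0 and at 8.68 and 9.13 at day 15. The day 15 arrays were higher without overlap but 1 of them only slightly, and the difference was 0.42 ± 0.21 log2 (95% interval −0.09 to 0.94; limma adjusted p = 0.53). It was 0.63 log2 without day 15 replicate 1 and 0.20 without day 15 replicate 2.

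Nkd2, the relative of Nkd1, was decided by a single array. It was at 10.54 and 12.12 at day 0 and at 11.75 and 11.81 at day 15, and its difference was 0.45 ± 0.49 log2 with a 95% interval of −0.76 to 1.66. Without day 0 replicate 1 the difference was −0.34 log2, and without day 0 replicate 2 it was 1.23 (limma adjusted p = 0.849 and 0.112).

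Promoter sequences are shown for Fzd9, which was called, for the feedback targets Nkd1 and Axin2, and for Wnt11, which has 2 windows in the table, of which the one with a TCF/LEF word is printed and the other holds none. They are the 250 bases before the transcription start in RefSeq, build GRCm38.p6, on the gene's strand, which is minus for Fzd9 and plus for the others. Words that TCF/LEF factors are known to bind were searched on both strands, and capitals mark a match. The first word was CTTTGAA. Beside it the search took CTTTGAT, the variant CTTTGTA and also the variant CTTTGTT. The windows are chr5:135251048-135251297 for Fzd9, chr8:88527383-88527632 for Nkd1, chr11:108920099-108920348 for Axin2 and chr7:98834862-98835111 for Wnt11.
Fzd9: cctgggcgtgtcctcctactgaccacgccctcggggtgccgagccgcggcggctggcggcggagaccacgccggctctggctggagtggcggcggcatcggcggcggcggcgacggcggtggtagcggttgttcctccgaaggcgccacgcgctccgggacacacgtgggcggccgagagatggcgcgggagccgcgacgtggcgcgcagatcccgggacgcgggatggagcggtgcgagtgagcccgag
Nkd1: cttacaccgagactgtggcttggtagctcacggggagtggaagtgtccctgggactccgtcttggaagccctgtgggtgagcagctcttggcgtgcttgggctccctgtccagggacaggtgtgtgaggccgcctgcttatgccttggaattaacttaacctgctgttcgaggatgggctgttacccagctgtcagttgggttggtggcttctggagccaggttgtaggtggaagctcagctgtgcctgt
Axin2: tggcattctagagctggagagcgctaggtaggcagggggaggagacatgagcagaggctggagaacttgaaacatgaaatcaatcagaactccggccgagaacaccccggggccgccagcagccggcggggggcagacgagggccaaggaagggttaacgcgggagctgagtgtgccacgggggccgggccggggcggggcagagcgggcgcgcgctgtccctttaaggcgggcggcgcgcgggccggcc
Wnt11: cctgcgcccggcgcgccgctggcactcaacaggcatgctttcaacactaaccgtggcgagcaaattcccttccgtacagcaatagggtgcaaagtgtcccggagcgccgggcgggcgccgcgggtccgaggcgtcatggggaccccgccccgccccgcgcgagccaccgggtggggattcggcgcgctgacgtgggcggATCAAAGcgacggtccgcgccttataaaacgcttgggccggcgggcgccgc

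Of the 39 members 29 had an entry in the promoter table, with 36 windows in all because a gene may have several starts. A word was found in 4 windows (11.1%), 1 each of Fzd7, Lef1, Wnt5b and Wnt11, against 14.8% of all 32851 windows. The Wnt11 match began 51 bases before the start, and that of Lef1 lay in the window of a downstream start. None of the words is in the windows printed for Fzd9, Nkd1 and Axin2, which says only that these letters are not there. The windows of the members held a median of 68.6% G and C, against 52.4% over all windows, and the Fzd9 window held 42 CpG dinucleotides.

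The other genes of the pathway were counted in 7 lists with 127 genes tested. In all 7 rose and none fell, which is 5.51% of them against the 1.72% of all genes. At an unadjusted limma p below 0.05, 21 were higher and 6 lower, or 21.3% against 12.2% of all genes. The median difference of the 127 genes was 0.05 log2, beside 0.02 for all genes.

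Genes that release Wnts or amplify their signal were not called (0 of 13 with limma), and their median was 0.30 log2. At an unadjusted limma p below 0.05, 3 were higher and 1 lower, or 30.8% against 12.2% of all genes. Lgr5, a receptor of R-spondins and itself a Wnt target, had the largest difference, from 9.16 and 11.48 at day 0 to 12.93 and 12.40 at day 15. The day 0 arrays lay far apart, and the difference of 2.34 ± 0.72 log2 did not pass (limma adjusted p = 0.258) but did without day 0 replicate 2 (3.51 log2, 0.00642). Rspo2, an R-spondin that amplifies Wnt signals, was at 9.78 and 9.84 at day 0 and at 8.71 and 8.01 at day 15. Its difference of −1.45 ± 0.26 log2 did not pass (limma adjusted p = 0.0732), and it passed without day 15 replicate 1 (0.0425), with an intensity trend and robust hyperparameters (0.0495) and among genes at or above the median level (0.0489).

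Of the 16 secreted antagonists and their receptors 2 rose and none fell. These were Frzb, from 5.88 and 5.79 to 10.55 and 11.20, and Wif1, from 9.33 and 9.68 to 12.24 and 12.47. Both encode inhibitors that bind Wnt ligands, and both were far higher on both day 15 arrays. The Sfrp genes of the list were not called, with differences of −1.01 (Sfrp1), 0.02 (Sfrp2), 1.18 (Sfrp4) and −0.03 log2 (Sfrp5), and were named after their values were seen. The day 0 values of Frzb lay in the olfactory receptor range, and against the 95th percentile of those genes at day 0 its day 15 mean was at least 8.41-fold higher. The median of that list was 0.03 log2. None of the 4 receptor turnover genes was called, and 1 was higher at an unadjusted limma p below 0.05. This was Rnf43, a ubiquitin ligase that removes Frizzled receptors, with a difference of 0.74 ± 0.17 log2 (limma adjusted p = 0.138) from day 0 values in the olfactory receptor range, and Tmem59, a regulator of receptor assemblies, differed by 0.31.

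Among 26 cytoplasmic transducers 1 rose and none fell, with a median of −0.02 log2. Dact1, which binds Dishevelled, was at 8.75 and 8.26 at day 0 and at 9.91 and 10.00 at day 15, higher without overlap. It rose by 1.45 ± 0.22 log2 (limma adjusted p = 0.0428), a call that was lost without day 0 replicate 2 (0.12), day 15 replicate 1 (0.136) or day 15 replicate 2 (0.131) and with all probe sets tested together (0.174). The next largest difference was 0.40 log2 for the RNA-binding protein Caprin2. Of the complex that breaks down beta-catenin, the kinase Gsk3b differed by −0.11 log2 (95% interval −0.66 to 0.44) and the scaffold Axin1 by −0.11 (−0.51 to 0.29), both named after their values were seen.

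None of the 17 nuclear factors was called with limma, and 1 was higher at an unadjusted p below 0.05. This was Hbp1, a repressor of TCF activity, which differed by 1.01 ± 0.21 log2 (limma adjusted p = 0.112). Tle6, of the Groucho corepressor family, differed by 0.61, and the list's median was 0.10.

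Of 28 genes of planar polarity and calcium signaling 2 rose and none fell, with a median of 0.09 log2. Prickle2, a core planar polarity protein, was at 8.73 and 8.16 at day 0 and at 10.26 and 10.16 at day 15. It rose by 1.76 ± 0.23 log2 (limma adjusted p = 0.0299). Daam2, a formin that links Dishevelled to actin, was at 9.13 and 9.56 and then at 10.79 and 11.13, and rose by 1.62 ± 0.23 log2 (limma adjusted p = 0.0347). Both were higher at day 15 without overlap. The call of Prickle2 was lost without day 0 replicate 2 (limma adjusted p = 0.0588), that of Daam2 without day 0 replicate 1 (0.0857), and both when day 15 replicate 1 (0.121 and 0.0818) or day 15 replicate 2 (0.0855 and 0.112) was left out and with all probe sets tested together (0.15 and 0.16).

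Among 23 further genes known to respond to beta-catenin in some tissues, 2 rose and none fell. At an unadjusted limma p below 0.05 there were 6 higher and 4 lower, or 43.5% against 12.2% of all genes. Trib2, a pseudokinase, was at 8.92 and 9.35 at day 0 and at 11.53 and 11.22 at day 15, and rose by 2.24 ± 0.22 log2 (limma adjusted p = 0.0121). Tnfrsf19, a TNF receptor family member, was at 9.12 and 9.18 and then at 11.52 and 10.93, and rose by 2.08 ± 0.24 log2 (limma adjusted p = 0.0188). For both, the days were far apart compared with the replicates, and both calls were lost only with all probe sets tested together (0.0846 and 0.111) among the alternatives run. The list's median was 0.04 log2. Its largest negative difference was that of Fst, which encodes the activin-binding protein follistatin, at 10.64 and 11.57 at day 0 and at 9.21 and 9.05 at day 15. Fst was lower at day 15 without overlap, and its difference of −1.97 ± 0.32 log2 narrowly missed the threshold (limma adjusted p = 0.0537). It passed with median centring (0.0379), with an intensity trend and robust hyperparameters (0.0286), among genes at or above the median level (0.0334) and without day 0 replicate 1 (0.0101). The proliferation genes Myc and Ccnd1 differed by −0.90 and −0.78 log2 and did not pass (limma adjusted p = 0.339 and 0.261). Fst, Myc and Ccnd1 were named after their values were seen.

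**Figure D3:**
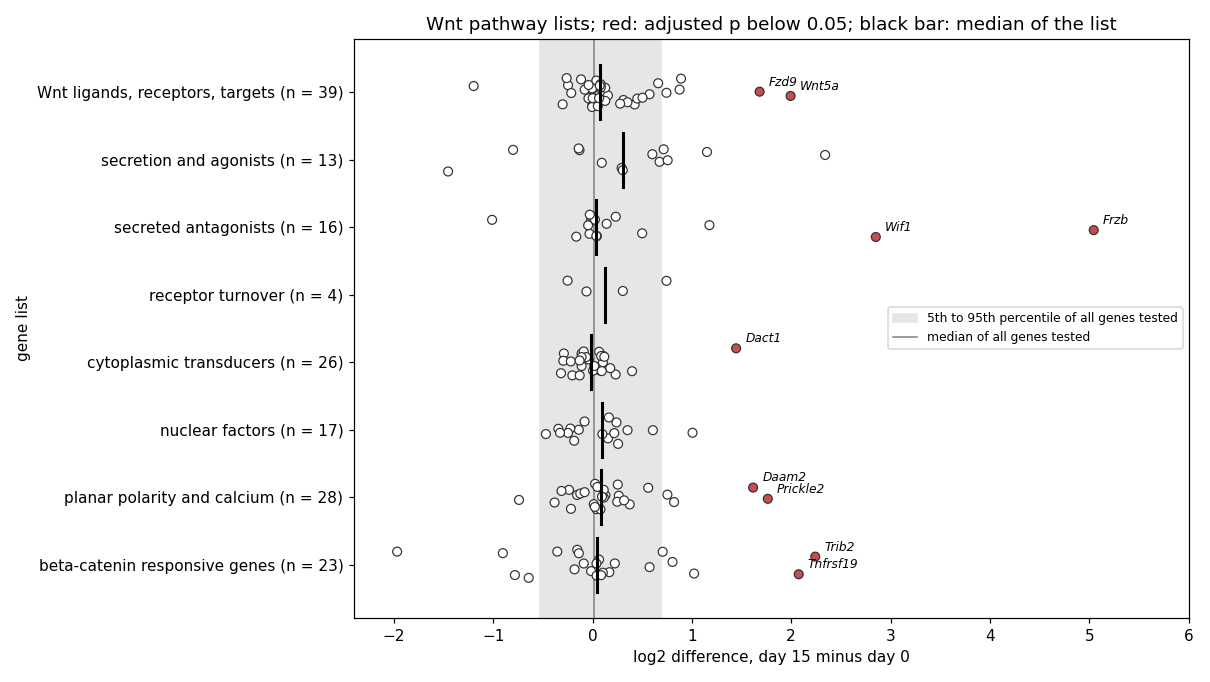
Difference between day 15 and day 0 in log2 intensity for each gene of the members and of the 7 other Wnt pathway lists, with a black bar for each list's median and a grey band from the 5th to the 95th percentile of all genes tested (−0.53 to 0.69). Red points had an adjusted p below 0.05, and all of them, from Dact1 at 1.45 to Frzb at 5.04 (measured from day 0 values in the olfactory receptor range), lie above the band.

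**Figure D4:**
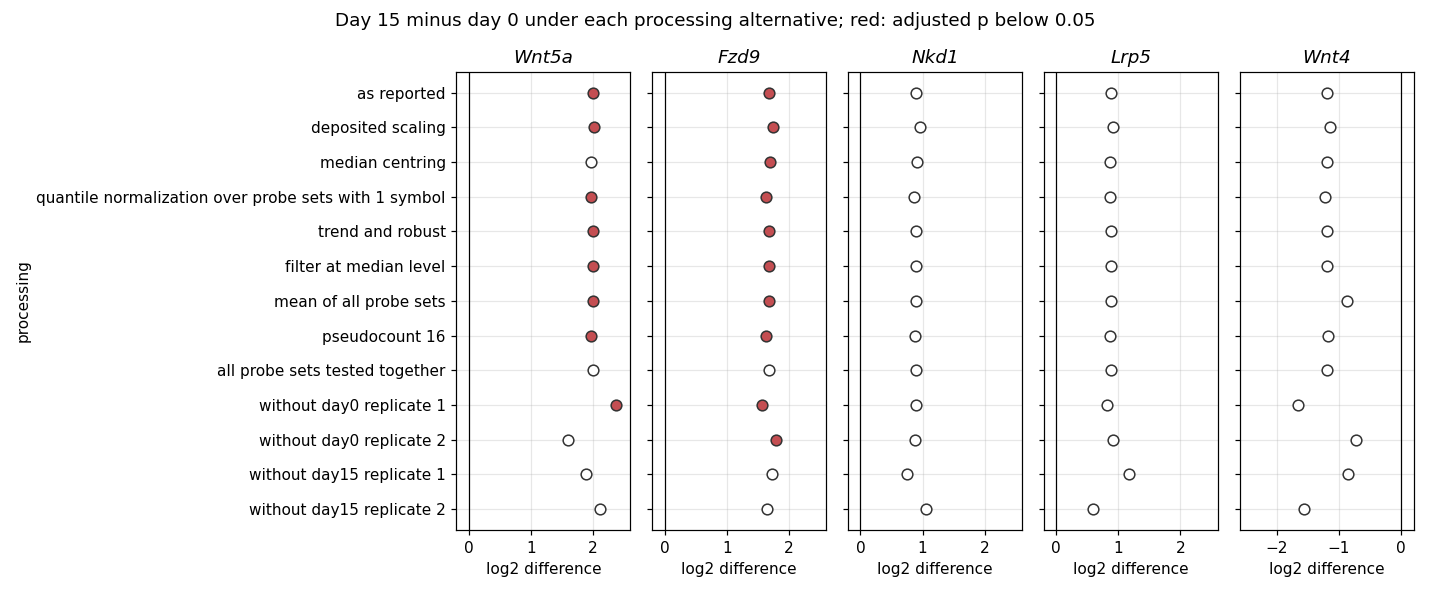
Difference between day 15 and day 0 in log2 intensity of Wnt5a, Fzd9, Nkd1, Lrp5 and Wnt4 as reported and under each processing alternative other than the replicate block, with red points for an adjusted p below 0.05. Each gene keeps its direction in every line, while the calls of Wnt5a and Fzd9 come and go between 1.59 and 2.37 log2 and between 1.58 and 1.79 log2.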

How the data were processed

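The deposited table holds 1 processed intensity per probe set and array on a linear scale (0.72 to 23103), judged from the values. How the authors corrected background, summarized probes and normalized arrays is not given in the sources that were used, and the submitters' processing notes name the genome build mm9. Of 35512 probe sets 21789 carried 1 gene symbol in the platform annotation and were used for genes. Values became log2(intensity + 1) and, because array medians differed by up to 0.20 log2, quantile normalized over all probe sets; the added 1 and background light understate changes of dim genes. The contrast of the days was fitted by limma 3.58.1 under R 4.3.3 (lmFit, eBayes, all 4 arrays, group as the only term), checked on simulated data. The number of arrays limits precision. The members, gene lists and tests were chosen with earlier results of these data known. All members could be named, with the called genes of each other list, up to 4, or its 2 largest differences where fewer than 2 were called. Plots were made in Python 3.11.15 using matplotlib 3.10.9.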

Additional observations from a re-analysis of the deposited data

How the results depend on the processing

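Of the 39 members, 2 were called as reported, 1 with median centring, 0 with all probe sets tested together, and 0 to 2 when 1 array was left out (always higher; 0 lower). Of all genes 342 were called, against 74 probe sets when all were tested together and 174 to 282 without 1 array; the 7 calls of the pathway lists became 2 and 5 to 7, and 8 with median centring or the filter on level and 9 with an intensity trend. Replicate numbers are shared by the days but nothing in the labels pairs the samples. With the replicate number as a block 628 genes were called, with 3 members (Wnt4 lower, the 1 lower call, at an adjusted p of 0.0279) and 11 pathway genes, among them Rspo2 and Fst, both lower (0.0428 and 0.0353). The deviations of same-numbered arrays correlated at 0.403 over genes. With 1 array left out the sign turned for 20 of the 39 members, whose reported differences were at most 0.45 log2 in size and none of these was called in those fits. The widest ranges were those of Nkd2 (−0.343 to 1.23 log2), Fzd3 (−0.488 to 0.708) and Fzd5 (−0.195 to 0.907), and others were Fzd2 (−0.329 to 0.326), Ror1 (−0.0210 to 0.275), Ror2 (−0.0788 to 0.202) and Lrp6 (−0.0731 to 0.169). Such fits take the single array left for a day to spread as the pair of the other day does. With 2 arrays per day the 95% intervals of the members reached from 0.39 log2 (Wnt11) to 1.21 log2 (Nkd2) on either side of the difference. Why calls were lost or gained between these fits was not tested. Among the alternatives were also the deposited scaling, quantile normalization over probe sets with 1 symbol, an intensity trend with robust hyperparameters, a pseudocount of 16, averaging the probe sets of each gene, and a filter to genes not under the median level, which left the 2 member calls in place.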

Other observations

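Some members differed more between replicate numbers than between days. Of the 39 members, 11 were higher in replicate 1 on both days and 15 were higher in replicate 2 on both days, together 66.7% beside 62.6% of all genes. Fzd3 was 0.60 log2 higher in replicate 1 at day 0 and 1.19 higher at day 15. Fzd2 was lower in replicate 1 by 0.53 log2 at day 0 and by 0.65 at day 15. These genes were picked out after their values were seen. Of 10 macrophage markers 8 were higher in replicate 1 on both days, on the same side as Fzd3 and on the opposite side to Fzd2. Their part in the differences between replicates was not tested.

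One day 0 array, replicate 1, was also low for several genes of the pathway and high for others, and it was not low over all genes. Of all genes, 178 were at least 1 log2 lower there than in day 0 replicate 2, and 289 at least 1 log2 higher. Nkd2 was at 10.54 in day 0 replicate 1 against 11.75 to 12.12 on the other arrays. Lgr5 was at 9.16 there against 11.48 to 12.93, and Porcn, the acyltransferase that prepares Wnt ligands for secretion, at 10.53 against 11.58 to 11.94. Other pathway genes were highest in day 0 replicate 1, such as Lgr4 at 12.51 against 11.09 to 11.59 and Amer1 at 10.04 against 9.15 to 9.59. Axin2, at 8.54, and Lef1, at 9.23, were not lower in day 0 replicate 1 than in replicate 2. These genes too were picked out after their values were seen.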
